A study of Mus musculus with 24 samples.

Results

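Neurexins, neuroligins and leucine-rich repeat transmembrane neuronal proteins (LRRTMs) are adhesion molecules that face each other across the synaptic cleft. The 9 genes described here are *Nrxn2*, *Nrxn3*, *Nlgn1*, *Nlgn2*, *Nlgn3*, *Lrrtm1*, *Lrrtm2*, *Lrrtm3* and *Lrrtm4*. They were chosen by gene name from the 46983 genes of a hippocampal read count table, with earlier results of these data known. Bulk mRNA sequencing was carried out on punches of dorsal and ventral hippocampus from 24 adult female C57BL/6 mice, with the aim of finding what the loss of FKBP51, a co-chaperone of the glucocorticoid receptor, and early life stress (ELS) change in the adult brain. *Fkbp5*lox/lox mice carried *Fkbp5* alleles flanked by loxP sites and served as wild types. *Fkbp5*Nex mice carried the same alleles together with Nex-Cre, which by the study's methods removes *Fkbp5* from forebrain glutamatergic neurons other than those of the dentate gyrus, so that interneurons, glia and granule cells keep the gene. ELS was given as limited bedding and nesting material in the first days after birth, and control litters had standard material. The 2 genotypes and 2 rearing conditions gave 4 groups of 6 mice, named lox control, lox ELS, Nex control and Nex ELS, and litters are not named in the sample labels, so the p-values measure the spread between mice and cannot account for shared litters.

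Neurexins sit mostly on the presynaptic membrane, and each gene gives long and short forms from separate start sites that are then spliced in many ways. Their postsynaptic partners include the neuroligins and the LRRTMs. Neuroligin 1 is known from excitatory synapses, neuroligin 2 from inhibitory synapses and neuroligin 3 from both, while the LRRTMs act at excitatory synapses, and LRRTM4 is known in the hippocampus for its role on dentate gyrus granule cells. LRRTM1 and LRRTM2 bind neurexins that lack the insert at the fourth splice site, and neuroligins bind forms with or without it. Gene-level counts cannot separate transcripts that hold the insert from those that skip it.

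Promoter windows reaching from 250 bases before to 50 bases after an annotated start were found in RefSeq (GRCm38.p6) for 6 of the 9 genes, with 10 windows in all. The first *Lrrtm4* window and the *Nlgn2* window are printed because *Lrrtm4* was the most variable of the 9 genes between mice and *Nlgn2* one of the steadier ones, and because their letters differ in one plain respect. Capitals mark CG dinucleotides, the sites of vertebrate DNA methylation.
Lrrtm4 promoter, chr6:80018627-80018926, plus strand: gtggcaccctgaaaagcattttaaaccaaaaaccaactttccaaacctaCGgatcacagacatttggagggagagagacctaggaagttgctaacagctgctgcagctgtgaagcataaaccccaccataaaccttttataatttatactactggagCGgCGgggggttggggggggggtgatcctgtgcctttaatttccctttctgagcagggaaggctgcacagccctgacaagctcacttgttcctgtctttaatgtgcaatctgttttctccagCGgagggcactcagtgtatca
Nlgn2 promoter, chr11:69837735-69838034, minus strand: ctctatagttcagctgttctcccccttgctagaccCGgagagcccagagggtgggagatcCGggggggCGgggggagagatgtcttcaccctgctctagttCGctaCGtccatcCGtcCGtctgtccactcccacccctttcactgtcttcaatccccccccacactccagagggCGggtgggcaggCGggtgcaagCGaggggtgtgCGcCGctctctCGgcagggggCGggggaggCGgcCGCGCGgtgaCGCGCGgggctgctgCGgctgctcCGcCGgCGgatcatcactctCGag
The printed *Lrrtm4* window held 4 CG dinucleotides, more than 31.4% of the 32851 promoter windows in RefSeq. The other *Lrrtm4* window (chr6:80019393-80019692), not printed, held 9, more than 54.2% of them. The *Nlgn2* window held 26, more than 83.1% of them, against a median of 7. AGAACA, one arm of the sequence that the glucocorticoid receptor recognises, was searched on both strands as AGAACA and TGTTCT, which do not overlap each other. It occurred once in the *Nlgn2* window and once in the first *Nrxn3* window, and 19% of all windows held it. These matches describe letters only.

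The 9 genes differ widely in size and setting. On GRCm38, *Nrxn3* (chr12:88722876-90334935, plus strand) spans 1612 kb and *Nlgn1* (chr3:25426215-26332460, minus strand) 906 kb, whereas *Nlgn2* (chr11:69823122-69837784, minus strand) spans 14.7 kb. *Nrxn2* lies at chr19:6418731-6544169 on the plus strand, *Nlgn3* at chrX:101299168-101325963 on the plus strand and *Lrrtm4* at chr6:80018877-80810143 on the plus strand. The other 3 LRRTM genes lie inside genes of the alpha-catenin family on the opposite strand: *Lrrtm1* (chr6:77242689-77257791, plus strand) within *Ctnna2*, *Lrrtm2* (chr18:35209003-35215024, minus strand) within *Ctnna1* and *Lrrtm3* (chr10:63928472-64090277, minus strand) within *Ctnna3*. Exons of *Lrrtm1* and *Lrrtm3* share no base with their host's exons, and those of *Lrrtm2* share 95. *Nlgn3* shares 3823 exon bases with the same-strand transcript *Gm21986*, which received 258 counts over the 24 mice, so reads may have been lost to it or left unassigned. Whether reads were counted by strand is not given in the sources used here, and counts of *Nrxn2*, *Nrxn3*, *Nlgn1*, *Lrrtm2* and *Lrrtm4* over bases shared with opposite-strand genes are uncertain to that extent. No 50-base word was shared by the annotated transcripts of any of the 36 pairs of the 9 genes.

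The libraries held 18347283 to 26555623 gene counts, with a median of 21385946.5. The levels of the 9 genes are given in CPM of library sizes scaled by TMM factors (0.968 to 1.03). All 9 genes passed the filter of at least 10 counts in each mouse of a group, as did 16209 genes in all. *Fkbp5* ranged from 47.4 to 64.1 counts per 1000000 gene counts (CPM) in the 12 *Fkbp5*lox/lox mice and from 8.74 to 27.3 in the 12 *Fkbp5*Nex mice, without overlap. Its fitted difference was -2.03 (log2, SE 0.09, edgeR with Benjamini-Hochberg adjusted p = 2.81e-12). Summed levels of the marker lists for the dentate gyrus (9 genes, 266.5 to 1226 CPM), CA1 (6 genes, 101.7 to 846 CPM) and CA3 (6 genes, 390.0 to 997.5 CPM) were above 0 in every library, as the hippocampal label requires. Choroid plexus markers ranged from 18.6 to 4548 CPM and thalamic markers from 127.5 to 465.4 CPM, with *Folr1* and *Kcnj13* of the first list and *Gbx2* of the second at 0 in some mice. In such bulk samples, fewer cells of a type and less RNA per cell cannot be told apart.

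The genes covered a wide range of abundance. Per kilobase of annotated exon, *Lrrtm1* (35.3 ± 2.93 CPM per kb, SD, n = 24) and *Nlgn2* (32.5 ± 2.45) stood highest, *Nrxn3*, *Lrrtm2* and *Nrxn2* followed at 18.6, 14.1 and 13.97, *Nlgn1* and *Nlgn3* at 7.90 and 7.56, and *Lrrtm3* and *Lrrtm4* came last at 3.74 and 2.76. The postsynaptic partner known from inhibitory synapses, *Nlgn2*, was on average 4.16 times the level per kilobase of *Nlgn1*, its counterpart at excitatory synapses, with a range of 3.24 to 5.39 over the 24 mice. *Nlgn2* exceeded *Nrxn3* in all 24 mice by 1.77 times on average, and the ranges of the 2 genes did not overlap. The same held for *Nrxn2* over *Nlgn1* (1.79 times) and for *Nlgn3* over *Lrrtm3* (2.15 times). The remaining neighbours overlapped: *Lrrtm1* exceeded *Nlgn2* in 19 of 24 mice, *Lrrtm2* exceeded *Nrxn2* in 12, *Nlgn1* exceeded *Nlgn3* in 16 and *Lrrtm3* exceeded *Lrrtm4* in 19. *Nrxn3* exceeded *Lrrtm2* in 24 of 24 mice although their ranges overlapped. This order depends on the length used. With the longest annotated transcript in place of all annotated exon bases, *Nrxn2* moved from 13.97 to 28.9 CPM per kb and *Nrxn3* from 18.6 to 29.6, so that both neurexins came near *Nlgn2* (33.8).

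**Figure D1:**
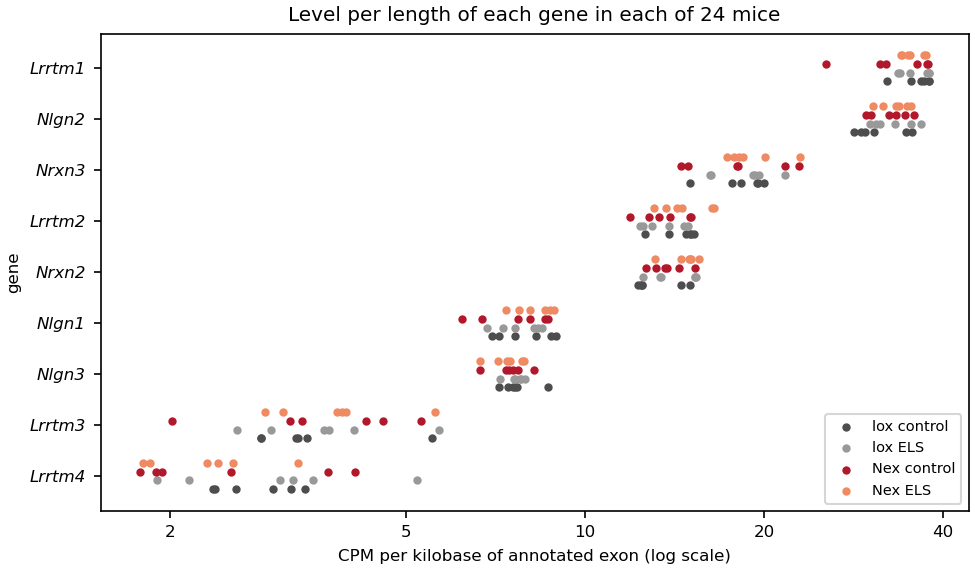
Level per length of the 9 genes in each of the 24 mice, as CPM per kilobase of annotated exon on a log axis, with points coloured by group. The means run from 35.3 for *Lrrtm1* down to 2.76 for *Lrrtm4*, and points of the 4 groups lie over each other for each gene.

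No member of the family passed the threshold of a false discovery rate (FDR) of 0.02 in any of 7 contrasts. The contrasts were genotype, ELS, their interaction, ELS within each genotype, and genotype within each rearing condition. The interaction was taken throughout as the ELS difference in lox mice minus that in Nex mice. Each contrast was fitted by edgeR's quasi-likelihood method with 5 surrogate variables, which are estimates of hidden sources of variation. For genotype, 0 of 9 genes were called, where 0.136% of all 16209 genes were (22 genes). In the other contrasts 0 of 9 were also called, where the share of all genes was 0% for ELS, for the interaction and for ELS within either genotype, 0.074% for genotype within control mice and 0.0123% for genotype within ELS mice. An unadjusted p under 0.05 was reached by 1 of 9 genes for genotype, against 11.4% of all genes, by 0 of 9 for ELS, against 3.53%, and by 0 of 9 for the interaction, against 3.95%. Within genotypes or conditions the counts were 0 of 9 for ELS in the lox groups (4.98% of all genes), 0 of 9 for ELS in the Nex groups (2.76%), 1 of 9 for genotype under control conditions (8.78%) and 0 of 9 for genotype after ELS (6.3%). DESeq2 likewise called 0 of 9 in each of the 7 contrasts. The fitted log2 differences lay on both sides of 0. Their median over the 9 genes was 0.02 (genotype), -0.01 (ELS) and 0.03 (interaction), beside medians over all genes of -0.0017, 0.0029 and 0.00027. Without regard to sign the medians were 0.0325, 0.0286 and 0.0677, beside 0.0504, 0.0408 and 0.0797 over all genes. Those farthest from 0 were -0.148 for genotype (*Lrrtm4*), 0.065 for ELS (*Nrxn2*) and 0.13 for the interaction (*Lrrtm3*). For the 7 genes other than *Lrrtm3* and *Lrrtm4*, the 95% confidence intervals of the genotype difference ran at the widest from -10.2% to 9.77% of the level, and those of the ELS difference from -9.54% to 11.5%. Those of the interaction ran from -18.7% to 18.7%. Over all 9 genes the intervals reached from 0.809 to 1.15 fold for genotype and from 0.838 to 1.15 fold for ELS. For the interaction they reached from 0.754 to 1.47 fold. These intervals bound the differences that the data leave possible and do not show that the groups were alike.

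**Figure D2:**
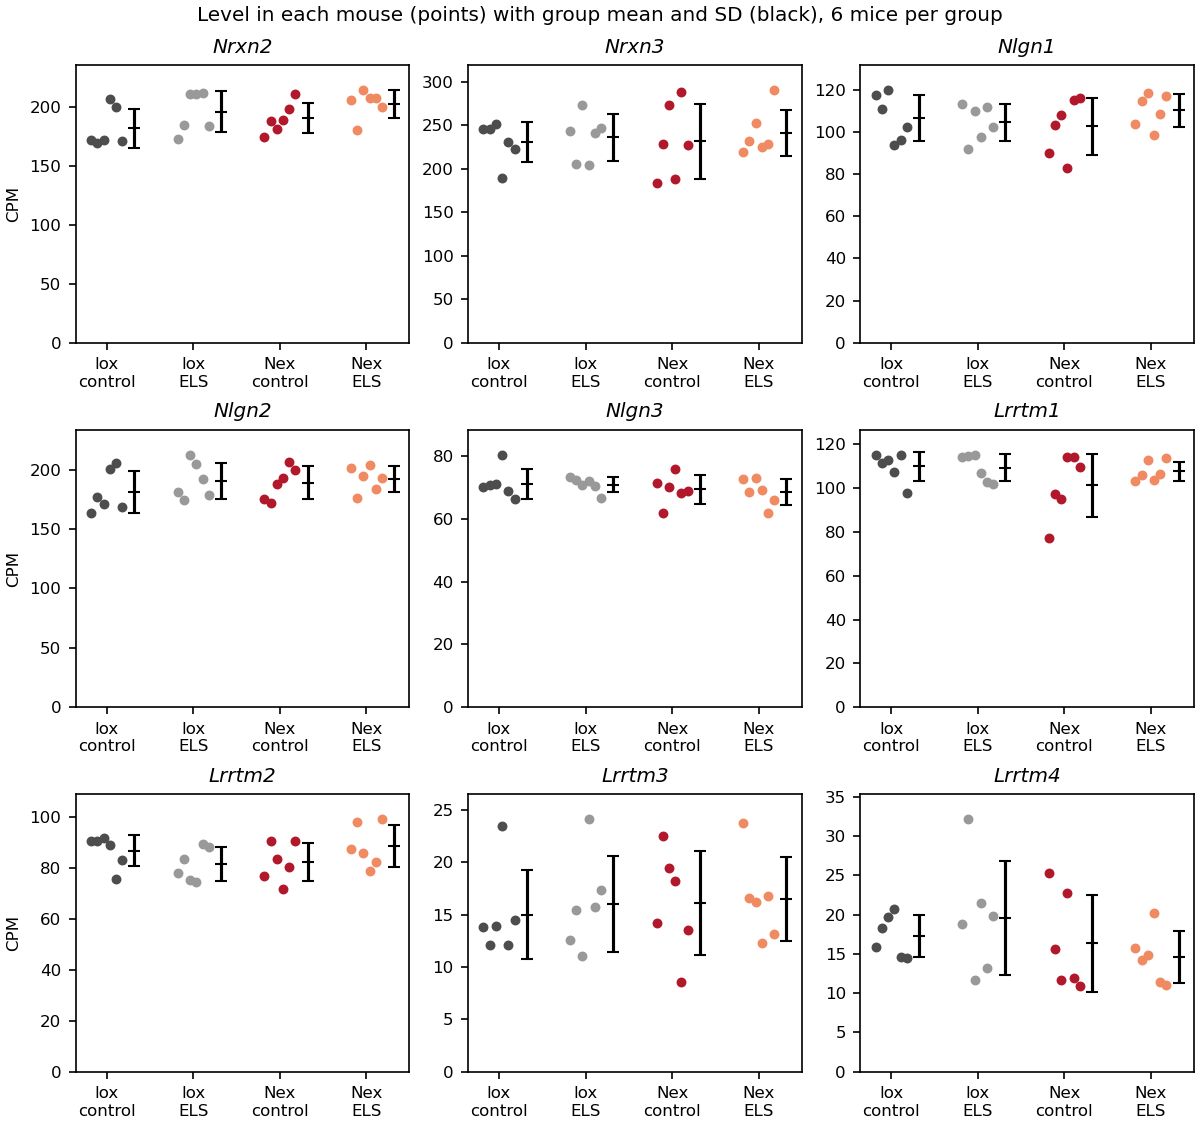
CPM of each of the 9 genes in every mouse by group (lox, *Fkbp5*lox/lox; Nex, *Fkbp5*Nex), with points for mice and the group mean ± SD in black. The 4 groups overlap for all 9 genes, and the spread is widest relative to the level for *Lrrtm3* and *Lrrtm4*.

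Of the presynaptic members, *Nrxn2* had lowest, median and highest levels of 169, 172 and 207 CPM in lox control mice and of 173, 198 and 213 in lox ELS mice. In *Fkbp5*Nex mice these were 175, 189 and 211 CPM under control conditions and 181, 207 and 214 CPM after ELS. Both ELS groups had the higher median, but all 4 groups overlapped. The ELS difference of 0.07 (log2, 95% CI -0.03 to 0.16) did not pass the edgeR test (adjusted p = 0.998). Without surrogate variables it was 0.10 with an unadjusted p of 0.0405 by edgeR's test, and it was not called there either (adjusted p = 0.999). *Nrxn3* had lowest, median and highest levels of 189, 238 and 252 CPM in lox control mice, 205, 242 and 274 in lox ELS mice, 183, 228 and 289 in Nex control mice and 219, 230.4 and 289.7 in Nex ELS mice. The Nex control mice enclosed almost the whole range of the gene. Its differences were 0.02 for genotype and 0.03 for ELS, each with an SE of 0.03 or 0.04.

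Among the neuroligins, *Nlgn1* had medians of 107, 106, 106 and 112 CPM in the order lox control, lox ELS, Nex control and Nex ELS. Its range was 93.7 to 119.7 CPM in lox control, 91.7 to 113.5 in lox ELS, 83.2 to 116 in Nex control and 98.6 to 119 in Nex ELS mice. *Nlgn2* had medians of 174, 187, 191 and 194 CPM in the same order, within a range of 164 to 212 over all mice. *Nlgn3* had medians of 70.4, 71.4, 69.6 and 68.9 CPM and was the steadiest of the 9 genes. In none of the 3 genes did the groups separate. The genotype differences were 0.02 for *Nlgn1*, 0.02 for *Nlgn2* and -0.05 for *Nlgn3*, and the ELS differences 0.02, 0.02 and -0.03, with SEs of 0.03 to 0.05.

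*Lrrtm1* was the only member with an unadjusted p under 0.05 for genotype. Its lowest, median and highest levels were 97.5, 112 and 115 CPM in lox control mice, 102, 110.5 and 115 in lox ELS mice, 77.2, 103 and 114 in Nex control mice and 103, 106 and 113 in Nex ELS mice. The low end was set by mouse 12 of the Nex control group at 77.2 CPM, and the 4 groups overlapped above it. The fitted genotype difference was -0.08 (log2, 95% CI -0.16 to -0.01, unadjusted p = 0.0209), and it was not called by edgeR's test (adjusted p = 0.344). It was -0.13 (SE 0.05, edgeR adjusted p = 0.434) within control mice and -0.04 (SE 0.05, edgeR adjusted p = 0.933) within ELS mice. The interaction, which here equals the value within control mice minus that within ELS mice, was -0.09 (95% CI -0.24 to 0.05). Without mouse 12 the genotype difference was -0.02, and mouse 12 also had the largest distance from the mean on the first principal component of all genes (2.24 SD). The host gene of *Lrrtm1*, the alpha-catenin gene *Ctnna2* on the opposite strand, had a genotype difference of 0.07 (SE 0.03, 95% CI -4.2e-05 to 0.13). It was not called by edgeR's test (adjusted p = 0.438). Neither were the hosts *Ctnna1* (0.04, edgeR adjusted p = 0.768) and *Ctnna3* (0.06, edgeR adjusted p = 0.927).

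*Lrrtm2* had medians of 89.6, 80.8, 81.9 and 86.8 CPM in the order lox control, lox ELS, Nex control and Nex ELS. The ELS difference was -0.10 (log2, 95% CI -0.24 to 0.04) in *Fkbp5*lox/lox mice and 0.01 (95% CI -0.13 to 0.15) in *Fkbp5*Nex mice, and the interaction of -0.11 (95% CI -0.30 to 0.09) was not called. *Lrrtm3* ranged from 12.1 to 23.5, 11.1 to 24.1, 8.59 to 22.6 and 12.3 to 23.8 CPM in the same 4 groups. The highest mouse of a group was 1.93 to 2.62 times the lowest, and the intervals of the fitted differences were accordingly wide, at -0.21 to 0.20 for genotype and -0.25 to 0.20 for ELS.

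*Lrrtm4* had the largest fitted genotype difference of the 9 genes. Its lowest, median and highest levels were 14.5, 17.1 and 20.7 CPM in lox control mice and 11.7, 19.3 and 32.1 in lox ELS mice. In *Fkbp5*Nex mice these were 10.96, 13.8 and 25.2 CPM under control conditions and 11.1, 14.5 and 20.2 CPM after ELS. Both *Fkbp5*Nex groups had the lower median, yet every range overlapped every other. The difference was -0.15 (log2, 95% CI -0.31 to 0.01), with an unadjusted p of 0.0647, and was not called by edgeR's test (adjusted p = 0.468). The *Fkbp5*Nex groups also had the lower medians of dentate gyrus and choroid plexus markers. All 9 listed dentate gyrus markers were detected, and their summed level ranged from 421 to 709 CPM (median 520.4) in lox control mice, from 374 to 1226 (587) in lox ELS mice, from 267 to 882 (322) in Nex control mice and from 286 to 658 (372) in Nex ELS mice. The summed level of the 5 choroid plexus markers tested, of 8 listed, ranged from 20.8 to 4548 CPM (median 888) in lox control mice, from 26.8 to 1482 (531) in lox ELS mice, from 18.6 to 3387 (54.9) in Nex control mice and from 23.4 to 1492 (146) in Nex ELS mice. Between mice of one group *Lrrtm4* rose with the dentate gyrus markers (Pearson's r = 0.91) but ran against those of choroid plexus (r = -0.78), as described below. It also ran against oligodendrocyte markers (r = -0.68). Their median summed levels were 3180, 3324, 3778 and 3406 CPM in lox control, lox ELS, Nex control and Nex ELS mice. The part of any of these lists in the *Lrrtm4* difference was not tested.

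**Figure D3:**
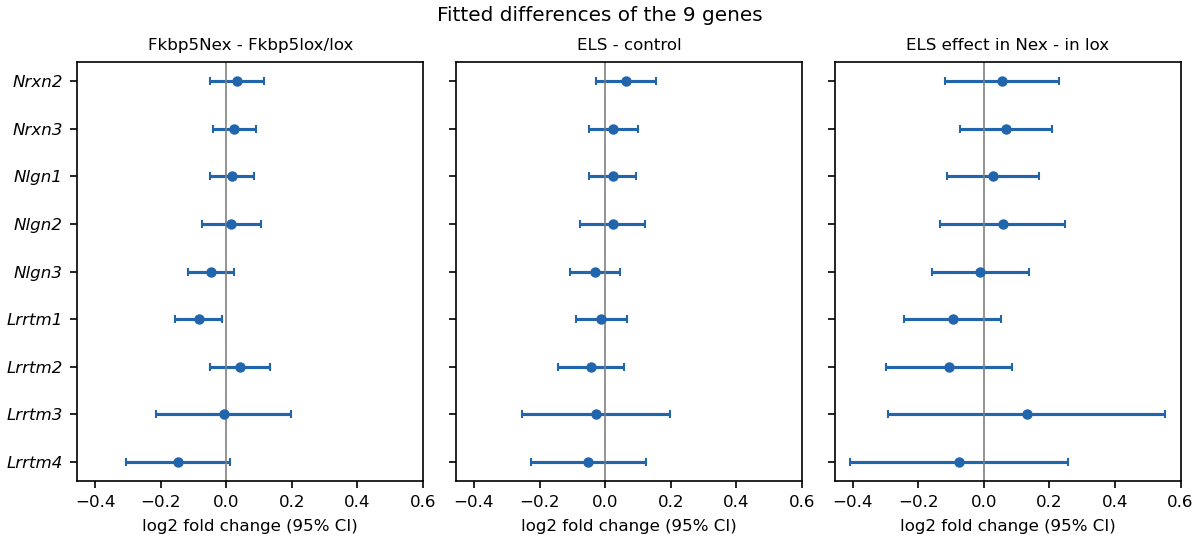
Fitted log2 differences of the 9 genes for genotype (left), ELS (middle) and their interaction (right), with points for estimates and bars for 95% confidence intervals. The interaction values plotted are the ELS difference in lox mice minus that in Nex mice, the reverse of the order in that panel's title. Every interval includes 0 except that of *Lrrtm1* for genotype (-0.16 to -0.01), and those of *Lrrtm3* and *Lrrtm4* are the widest.

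What set the genes apart was their spread between mice of one group. The within-group SD of log2 CPM was 0.41 for *Lrrtm4* and 0.40 for *Lrrtm3*, larger than that of 86.8% and 84.8% of tested genes. It was 0.19 for *Nrxn3*, 0.15 for *Nlgn1*, 0.13 for *Lrrtm1*, 0.12 for *Lrrtm2* and 0.11 for both *Nrxn2* and *Nlgn2*, and 0.085 for *Nlgn3*, which was steadier than all but 6.76% of tested genes. The median gene had an SD of 0.18. Counting error alone would give an SD of at most 0.078, the value for *Lrrtm3*. The 5 surrogate variables took 88.6% of the within-group variance of *Nrxn3*, 83.3% of that of *Lrrtm4* and 81.6% of that of *Nlgn1*, but 25.3% of that of *Nlgn2* and 36.6% of that of *Nlgn3*, beside a median of 56.5% over all genes.

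The levels were therefore compared with marker scores for 10 cell types and regions across the 24 mice, as deviations from group means, which removes the differences between groups. A score is the mean of the standardised log2 CPM of the tested markers. Of 90 relations, 12 had an adjusted permutation p under 0.05 for both Pearson's r and Spearman's rho (100000 permutations within groups). They fell on 4 genes: *Lrrtm4* with 5, *Nrxn3* with 4, *Nlgn1* with 2 and *Lrrtm3* with 1. Without mouse 44 of the lox control group 4 of the 12 passed, those of *Nrxn3* with CA3 and of *Lrrtm4* with the dentate gyrus, choroid plexus and oligodendrocytes. After the 5 surrogate variables had been regressed out, 0 of the 12 passed. None of the 12 was found for *Nrxn2*, *Nlgn2*, *Nlgn3*, *Lrrtm1* or *Lrrtm2*, whose strongest r was 0.52 (*Nrxn2* with interneuron markers, adjusted permutation p = 0.097). All points share their library with the marker genes.

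*Lrrtm4* had its strongest relation with the granule cell markers of the dentate gyrus. Its r with their score was 0.91 and its rho 0.95, with an unadjusted permutation p of 1e-05, the smallest that the permutations can give (adjusted p = 0.00045 and 0.0003). Without the 2 mice whose scores lay farthest from the median r was 0.87, and the relation passed whichever of the 24 mice was left out. After the surrogate variables had been regressed out r was 0.64 (adjusted permutation p = 0.0849). Among the 9 single markers, r ranged from 0.27 for *Pdzd2* to 0.90 for *Stxbp6*, and was 0.89 for *Prox1*, the transcription factor that defines granule cells. The mouse with the most *Lrrtm4*, mouse 8 of the lox ELS group at 32.1 CPM, also had the highest granule cell score (2.14). *Lrrtm4* ran against the scores of CA3 (r = -0.60, adjusted permutation p = 0.022), choroid plexus (r = -0.78, adjusted permutation p = 0.0009) and oligodendrocytes (r = -0.68, adjusted permutation p = 0.0119). The CA3 relation was lost without mouse 44 of the lox control group (adjusted permutation p = 0.0921), mouse 56 of the lox ELS group or mouse 12 of the Nex control group, while those with choroid plexus and oligodendrocytes passed in all 24 cases with 1 mouse left out. Its relation with astrocyte markers (r = 0.59, adjusted permutation p = 0.0495) dropped to 0.34 without the 2 mice farthest from the median and rests on them, and it passed in 9 of the 24 cases with 1 mouse left out.

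*Nrxn3* and *Nlgn1* had theirs with the CA3 markers. *Nrxn3* had an r of 0.88 and a rho of 0.90 with the CA3 score (adjusted permutation p = 0.00045 and 0.0003, and r = 0.87 without the 2 farthest mice), and it passed whichever mouse was left out. After the surrogate variables had been regressed out r was 0.23 (adjusted permutation p = 0.63). All 6 single CA3 markers gave a positive r with it, from 0.61 for *Iyd* to 0.89 for *Nectin3*, itself a gene of synaptic adhesion. *Nlgn1* had an r of 0.69 and a rho of 0.73 with the same score (adjusted permutation p = 0.0122 and 0.0112). Both genes ran against the granule cell score, with r of -0.66 for *Nrxn3* and -0.65 for *Nlgn1* (adjusted permutation p = 0.018 for each). *Nrxn3* also rose with choroid plexus (r = 0.67) and oligodendrocyte markers (r = 0.69), each with an adjusted permutation p of 0.018. Without mouse 44 of the lox control group neither *Nlgn1* relation passed (adjusted permutation p = 0.0628 for each), nor did those of *Nrxn3* with granule cells, choroid plexus and oligodendrocytes (adjusted permutation p = 0.0688 for each). With the surrogate variables regressed out, r of *Nlgn1* with the CA3 score was 0.24.

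*Lrrtm3* ran against the CA3 score (r = -0.65, rho = -0.62, adjusted permutation p = 0.0277 and 0.0463), and without the 2 farthest mice r was -0.72. Without mouse 44 of the lox control group r was -0.56 and the relation no longer passed (adjusted permutation p = 0.195), nor did it without mouse 68 of the lox ELS group or mouse 54 of the Nex control group. With the surrogate variables regressed out r was -0.0986. Its r with interneuron markers of 0.58 missed the threshold (adjusted permutation p = 0.0528).

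**Figure D4:**
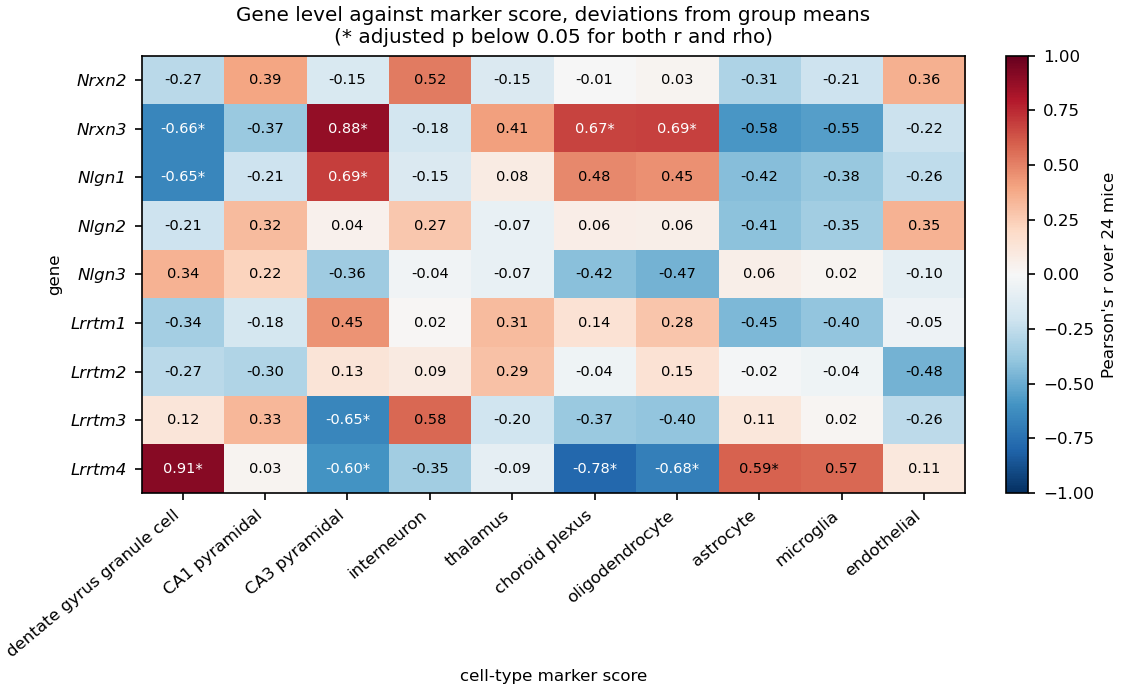
Pearson's r between the log2 CPM of each gene (rows) and the marker score of each cell type or region (columns) over 24 mice, as deviations from group means, with asterisks where both r and rho had an adjusted permutation p under 0.05. The 12 asterisks fall in the rows of *Nrxn3*, *Nlgn1*, *Lrrtm3* and *Lrrtm4*, led by 0.91 for *Lrrtm4* with the dentate gyrus and 0.88 for *Nrxn3* with CA3.

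Between the members themselves, 36 pairs were compared in the same way, a family of tests added after the relations with markers had been seen. In 4 pairs both r and rho had an adjusted permutation p under 0.05. *Nrxn2* and *Nlgn2* rose and fell together (r = 0.82, rho = 0.79, adjusted permutation p = 0.00126 and 0.00306, and r = 0.82 without the 2 farthest mice), and so did *Nrxn3* and *Nlgn1* (r = 0.80, rho = 0.77, adjusted permutation p = 0.00108 and 0.00306, and 0.79 without the 2 farthest mice). *Lrrtm4* ran against *Nrxn3* (r = -0.72, adjusted permutation p = 0.00981) and against *Nlgn1* (r = -0.68, adjusted permutation p = 0.00981). After the 5 surrogate variables had been regressed out, r was still 0.79 for *Nrxn2* and *Nlgn2*, but 0.13 for *Nrxn3* and *Nlgn1*. For *Lrrtm4* it was -0.38 with *Nrxn3* and -0.37 with *Nlgn1*. Pairs outside these 4 also had a large r there: -0.76 for *Nlgn2* and *Lrrtm3*, -0.71 for *Nrxn2* and *Lrrtm3*, 0.64 for *Lrrtm3* and *Lrrtm4* and -0.64 for *Nlgn2* and *Lrrtm2*. No pair was tested in that setting. *Nrxn2* had a relation with endothelial markers there (r = 0.68, adjusted permutation p = 0.0355).

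**Figure D5:**
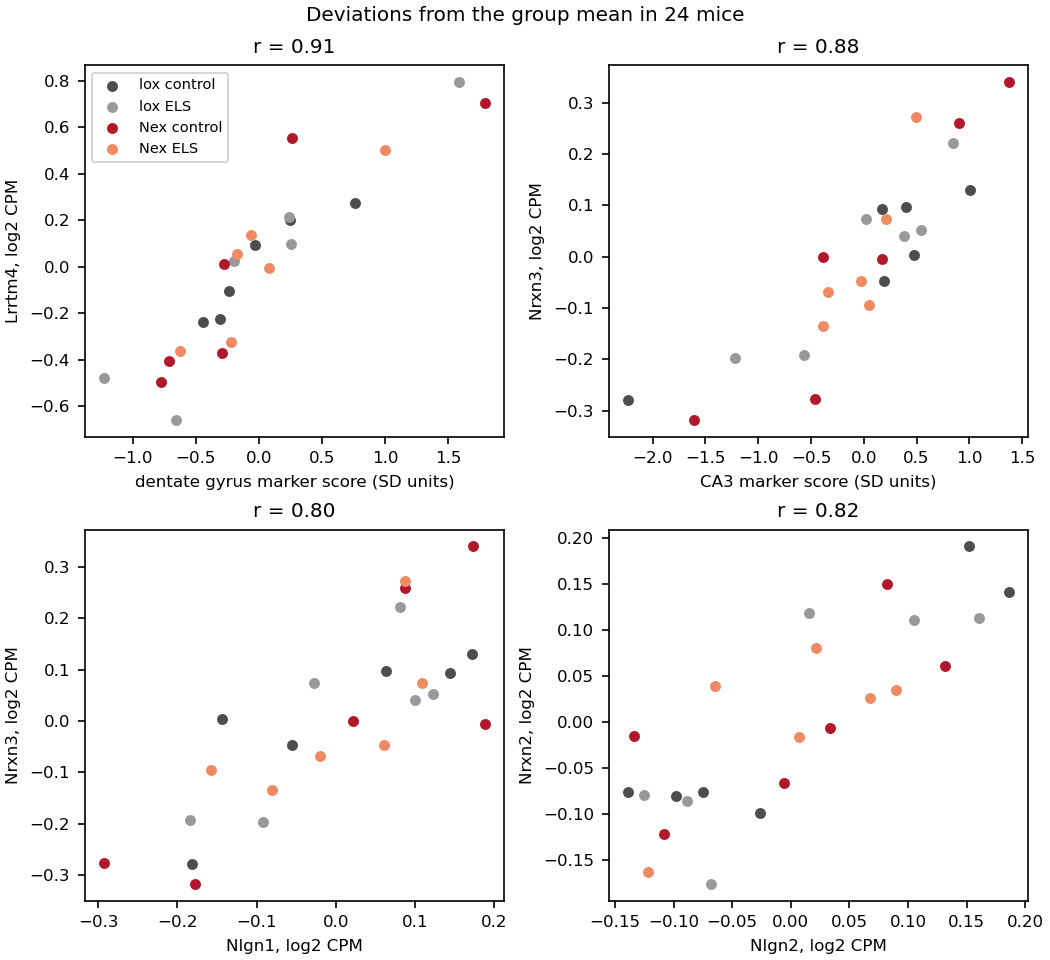
Deviations from the group mean in 24 mice, coloured by group, for *Lrrtm4* against the dentate gyrus score and *Nrxn3* against the CA3 score (top), and for *Nrxn3* against *Nlgn1* and *Nrxn2* against *Nlgn2* (bottom, log2 CPM on both axes). The points of the 4 groups overlap in each panel, and over all 24 mice r is 0.91, 0.88, 0.80 and 0.82.

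The genes most like each member were found among 16208 other tested genes by Spearman's rho of the same deviations over 24 mice, given as a description. *Lrrtm4* was most like *Stk32c* (0.93), *Rogdi* (0.92) and *Pde1b* (0.92). *Nrxn3* was most like *Slc24a2*, *Luzp1* and *Tppp* (each 0.95), and *Nlgn1* like *Opcml* (0.91), itself a neuronal cell adhesion molecule, *Camsap2* (0.91) and *Dnajc6* (0.90). *Nrxn2* was most like *Tmem201*, *Celsr2* (each 0.90) and *Ulk1* (0.88), and *Nlgn2* like *Tmem63b*, *Atp6v0a1* (each 0.90) and *Scaf1* (0.87). *Lrrtm2* came closest to *Nalcn* (0.89), *Ube3a* (0.88) and *Ubxn7* (0.87), and *Lrrtm3* to *Xpo1* (0.90), *Dpy19l1* (0.84) and *Mir124-2hg* (0.81). The closest genes were less close for *Lrrtm1*, with *Mcu* (0.80), *Mrpl15* (0.75) and *Lmo1* (0.73), and for *Nlgn3*, with *Naa40* (0.73), *Hdgfrp2* (0.72) and *Hspb11* (0.71).

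The wider pathway was covered by 3 lists with 80 genes, all of them tested: 21 other neurexin partners and modulators, 34 other trans-synaptic adhesion organisers and 25 cytoplasmic partners and scaffolds. None of the 80 was called in any of the 7 contrasts by edgeR's test. An unadjusted p under 0.05 was reached by 15 of 80 in the genotype contrast (beside 11.4% of all genes), by 4 for ELS (3.53%) and by 3 for the interaction (3.95%). The median genotype difference was 0.04 for the neurexin partners, -0.0036 for the adhesion organisers and 0.02 for the scaffolds.

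The smallest p-values for genotype belonged to *Cadm4*, a synaptic cell adhesion molecule of the SynCAM family (0.13 on the log2 scale, SE 0.03, edgeR adjusted p = 0.102), and to *Gpc4*, a glypican whose heparan sulphate chains bind LRRTM4 (-0.23, SE 0.06, edgeR adjusted p = 0.111). Within control mice the *Gpc4* difference was -0.38 (SE 0.08, edgeR adjusted p = 0.0682), the smallest adjusted p of the 80 genes in any contrast. *Lin7c*, a scaffold protein that joins CASK, followed there with -0.17 (edgeR adjusted p = 0.160). For ELS the smallest p-values were those of *Nxph4*, a neurexophilin that binds neurexins (0.80, SE 0.23, edgeR adjusted p = 0.998), and of *Snx27*, a sorting protein (-0.06, SE 0.02, edgeR adjusted p = 0.998). The calsyntenin gene *Clstn2* led the interaction with 0.24 (SE 0.08, edgeR adjusted p = 0.999), followed by *Gpc4* with -0.31 (SE 0.12, edgeR adjusted p = 0.999). Within *Fkbp5*lox/lox mice the ELS value of *Clstn2* was 0.22 (SE 0.06, edgeR adjusted p = 0.938), beside 1.14 for *Nxph4* (SE 0.33, edgeR adjusted p = 0.938). The genotype difference of *Clstn2* within ELS mice was -0.19 (SE 0.05, edgeR adjusted p = 0.596), beside 0.18 for *Cadm4* (SE 0.05, edgeR adjusted p = 0.596). Within *Fkbp5*Nex mice the ELS values with the smallest p were 0.22 (SE 0.10) for *Car10*, a carbonic anhydrase-related protein that binds neurexins, and -0.11 (SE 0.05) for *Lrrc4c*, a netrin-G ligand, each with an edgeR adjusted p of 0.99951. None of these values passed the FDR of 0.02.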

How the data were processed

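Hippocampal mRNA of 24 female mice in 4 groups of 6 was analysed from 1 table of raw read counts per gene that the authors deposited, holding 46983 genes and no other columns of samples. Per the submitters' processing notes and the study's methods, reads had been aligned with HISAT2 2.0.5 and counted with featureCounts 1.5.0-p3; the genome build, annotation and strand setting are not given in the sources used here. Groups and mouse numbers were taken from the sample labels, and the members and gene lists were chosen with earlier results of these data known. The named genes were the 9 members, *Fkbp5*, host genes that overlap members, the 3 genes most like each member by Spearman's rho, pathway genes past the FDR in any contrast and the 2 with the smallest p in each.

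Genes with at least 10 counts in each mouse of 1 group were kept (16209). Counts were tested with edgeR 4.0.16 (R 4.3.3), with TMM scaling, group means and 5 surrogate variables from sva 3.50.0, at an FDR of 0.02 after Benjamini-Hochberg adjustment over all tested genes. The groups held between 3.31% and 23.0% of the variance of a surrogate variable. The edgeR fit and the permutation test were run on simulated data with planted signals. Those data held no hidden source of variation, so they did not check the correction by surrogate variables. Alternatives were no surrogate variables, DESeq2 size factors, edgeR's own filter (filterByExpr), no filter, DESeq2 1.42.0, an FDR of 0.05, only the 12 mice compared and each mouse left out. Lengths and positions came from GENCODE vM21 (GRCm38), where 46488 of 46983 gene IDs were found. Relations used SciPy 1.17.1 and NumPy 2.4.6. Surrogate variables from these data may take up part of a difference between groups.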

Additional observations from a re-analysis of the deposited data

Results flagged for a closer look

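Levels of 9 genes in 4 groups gave 36 sets of 6 mice, and in 2 of them 1 mouse lay far from the other 5, by a gap that chance would give in about 1 in 20 sets. Both concerned mouse 44 of the lox control group. Its *Lrrtm3* level was 23.5 CPM (514 counts), where the next mouse had 14.5, a gap of 0.732 of the group's range on the log2 scale. Its *Nlgn3* level was 80.4 CPM (1759 counts), where the next had 71.2, a gap of 0.63. The same mouse had the lowest *Nrxn3* level of its group, 189 CPM, and the highest *Lrrtm4* level, 20.7 CPM.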

How the results depend on the processing

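No member was called under any alternative, in any of the 7 contrasts, and the smallest adjusted p of a member was 0.128 (*Lrrtm1*, genotype, without mouse 34 of the lox control group). No paired analysis was possible because the groups share no mouse numbers. The number of genes called for genotype, 22 in the edgeR fit, was 3 without surrogate variables, 11 with edgeR's own filter, 66 with DESeq2 and 47 at an FDR of 0.05. It ranged from 6 (without mouse 74, lox control) to 35 (without mouse 54, Nex control) when 1 mouse was left out. For genotype within control mice, with 12 genes called, the counts were 2 without surrogate variables, 3 with edgeR's filter, 7 without a filter, 53 with DESeq2, 1 with only the 12 mice compared and 30 at an FDR of 0.05, and 2 to 14 with 1 mouse left out. DESeq2 called 4 genes for genotype within ELS mice, against 2, and 1 for ELS in *Fkbp5*lox/lox mice, against 0. With 1 mouse left out, ELS and ELS in *Fkbp5*Nex mice each gave 0 to 1 genes.

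Some fold changes (log2) changed sign with the settings, and not all of these values were near 0. The *Lrrtm4* interaction was -0.075 in the edgeR fit with surrogate variables and 0.344 (SE 0.32) without them. For *Nlgn1* the interaction was 0.027 with them and -0.132 (SE 0.11) without. Without surrogate variables the value was 0.0715 for *Lrrtm3* (genotype), 0.0394, 0.00901, 0.067 and 0.00444 for *Lrrtm1*, *Lrrtm2*, *Lrrtm3* and *Lrrtm4* (ELS), and -0.0296, -0.132, 0.0128 and 0.344 for *Nrxn3*, *Nlgn1*, *Nlgn3* and *Lrrtm4* (interaction). With edgeR's filter it was -0.00105 for *Nlgn2* (genotype), 0.00056, 0.0432 and 0.000726 for *Lrrtm1*, *Lrrtm3* and *Lrrtm4* (ELS), and -0.0322 and -0.087 for *Nrxn3* and *Nlgn1* (interaction). Without a filter it was -0.00888 for *Nlgn2* (genotype), 0.0143, 0.0216 and 0.00639 for *Lrrtm1*, *Lrrtm3* and *Lrrtm4* (ELS), and -0.0122 for *Nlgn1* (interaction). With 1 mouse left out, genotype values that changed sign ranged from -0.00548 to 0.0509 for *Nrxn2*, -0.0138 to 0.0791 for *Nrxn3*, -0.0294 to 0.0727 for *Nlgn1*, -0.0234 to 0.0376 for *Nlgn2* and -0.0871 to 0.0842 for *Lrrtm3*. ELS values did so from -0.0208 to 0.0524 for *Nrxn3*, -0.0354 to 0.0466 for *Nlgn1*, -0.00755 to 0.055 for *Nlgn2*, -0.0505 to 0.00482 for *Nlgn3*, -0.0496 to 0.00628 for *Lrrtm1*, -0.111 to 0.0927 for *Lrrtm3* and -0.108 to 0.00697 for *Lrrtm4*. Interaction values did so from -0.0714 to 0.11 for *Nrxn3*, -0.122 to 0.0542 for *Nlgn1*, -0.0416 to 0.0661 for *Nlgn3* and -0.167 to 0.0215 for *Lrrtm4*, and the *Lrrtm1* genotype value within ELS mice from -0.0611 to 0.0174. The cause of these changes was not tested.

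Of the 90 relations with marker scores, 12 passed, and 4 (without mouse 44, lox control) to 15 (without mouse 8, lox ELS) with 1 mouse left out. With the surrogate variables regressed out 0 of these 12 passed, and the 2 that did were others, those of *Nrxn2* (r = 0.68) and *Lrrtm3* (r = -0.61) with endothelial markers (adjusted permutation p = 0.0355 for each). There r was 0.64 for *Lrrtm4* with the dentate gyrus, 0.23, 0.24 and -0.0986 for *Nrxn3*, *Nlgn1* and *Lrrtm3* with CA3, and changed sign to -0.10 for *Nrxn3* with oligodendrocyte markers and to 0.0537 and -0.426 for *Lrrtm4* with choroid plexus and astrocyte markers. Levels of *Lrrtm3* and *Lrrtm4* rest on 174 to 867 counts a mouse. Counting error alone would give them an SD of log2 CPM of 0.078 and 0.075, against 0.020 to 0.037 for the other 7 genes. Their within-group SDs, 0.40 and 0.41, were far larger than that. For *Nlgn3* the within-group SD was 0.085 beside a counting SD of 0.037, so depth weighed more on its spread.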
